A study of Mus musculus with 15 samples.

Results

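Enterocyte progenitors (Ent-Pro), the crypt cells on the way to the absorptive lineage, were examined for the combinations in which 2 histone marks and open chromatin occur along the genome. The members were all peaks of the 4 Ent-Pro lists, 257378 of the 778471 peaks in the 12 lists of the series. They comprised 85881 and 64138 H3K4me2 peaks (replicates 1 and 2), 68764 H3K27ac peaks (1 library) and 38595 DNase I hypersensitive sites (DHS, 1 library). Each H3K4me2 peak was classed by whether an H3K27ac peak and a DHS overlapped it by at least 1 bp. H3K27ac peaks were classed by H3K4me2 and DHS, and DHS by H3K4me2 and H3K27ac. No measured value other than these overlaps entered the classes.

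H3K4me2, dimethylation of lysine 4 of histone H3, is found at promoters and enhancers whether or not they are active. H3K27ac, acetylation of lysine 27, is found at active promoters and enhancers, and DNase I cuts preferentially where nucleosomes are displaced, as at sites bound by transcription factors. Crypt progenitors choose between an absorptive and a secretory fate through Notch signalling. Notch represses Atoh1, the gene of the transcription factor that secretory cells need.

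The study mapped these marks in C57BL/6 mice, whose age and sex were not given in the sources used here. Ent-Pro were crypt epithelium of Atoh1-/- mice, which lack secretory cells, and enterocytes (ENT) were villus epithelium of Atoh1-/- mice. Goblet cells (GOB) came from villi of Rbpj-/- mice, which lack the DNA-binding partner of Notch, and stem cells (ISC) were Lgr5+ cells sorted for GFP from Lgr5-eGFP-Cre mice. Secretory progenitors (Sec-Pro) were enriched in crypts by Rbpj deletion or by the Notch inhibitor dibenzazepine (DBZ). ISC, GOB and ENT were each mapped for H3K4me2 in 1 library. No sort was stated for Ent-Pro, the time of Atoh1 deletion was not stated, and cell type cannot be told apart from genotype. The lists hold no expression values, so the cell labels could not be checked against marker genes. Whether the replicates came from separate animals was not stated. The peak names inside both Ent-Pro H3K4me2 lists read rep1, so the replicate numbers rest on the sample each list was deposited under.

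Read depth is unknown for all lists, and a site without a peak may still carry the mark. The lists covered 74.0 and 57.7 Mb for H3K4me2 replicates 1 and 2, 64.0 Mb for H3K27ac and 17.5 Mb for DHS. The shortest peak measured 146 bp in Ent-Pro replicate 1, ISC, GOB and ENT, and 200 bp in Ent-Pro replicate 2, H3K27ac and DHS. The part of this difference in the results was not tested, and each replicate is given separately. Brackets give 95% intervals, by the Wilson method for shares, which cover counting error only. Sites are not replicates and most marks had 1 library, so no p-value was computed between cell types.

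H3K4me2 in enterocyte progenitors was mostly accompanied by H3K27ac and more rarely by open chromatin. The largest class in both replicates was H3K4me2 with H3K27ac and without a DHS. It held 35434 of 85881 peaks in replicate 1 (41.3% [40.9 to 41.6]) and 29468 of 64138 in replicate 2 (45.9% [45.6 to 46.3]). Peaks with both H3K27ac and DHS, the combination of active and open elements, numbered 21719 (25.3% [25.0 to 25.6]) and 21194 (33.0% [32.7 to 33.4]). Peaks with a DHS and no H3K27ac were few, 5719 (6.66% [6.49 to 6.83]) and 3871 (6.04% [5.85 to 6.22]). Those with neither numbered 23009 (26.8% [26.5 to 27.1]) and 9605 (15.0% [14.7 to 15.3]).

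Over the 2 libraries, H3K27ac accompanied 72.8% ± 8.80 of the H3K4me2 peaks and a DHS accompanied 35.5% ± 5.04 (SD, n = 2). The replicates gave nearly equal numbers of peaks with H3K27ac and DHS. They differed mainly in the peaks with neither, which were 23009 in replicate 1 and 9605 in replicate 2. Of the replicate 1 peaks with both companions, 96.4% overlapped a replicate 2 peak, whereas 32.6% of those with neither did. In the other direction the shares were 99.6% and 84.8%, against 67.0% and 94.9% for the whole lists. Regions marked in both libraries numbered 51233 after merging. Of these, 39.0% [38.6 to 39.5] had H3K27ac and DHS, 42.4% [42.0 to 42.9] H3K27ac alone, 6.93% [6.71 to 7.15] DHS alone and 11.6% [11.3 to 11.9] neither.

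A DHS was more frequent on H3K4me2 peaks with H3K27ac than on those without it, in both replicates. Of the H3K4me2 peaks with H3K27ac, 38.0% [37.6 to 38.4] in replicate 1 and 41.8% [41.4 to 42.3] in replicate 2 held a DHS. Of those without H3K27ac, 19.9% [19.4 to 20.4] and 28.7% [28.0 to 29.5] did. Conversely, H3K27ac was present at 79.2% [78.7 to 79.6] and 84.6% [84.1 to 85.0] of the peaks with a DHS and at 60.6% [60.2 to 61.03] and 75.4% [74.99 to 75.8] of those without. More than 1 DHS within a peak was uncommon, at 7.78% and 7.20% of the peaks with both companions.

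**Figure D1:**
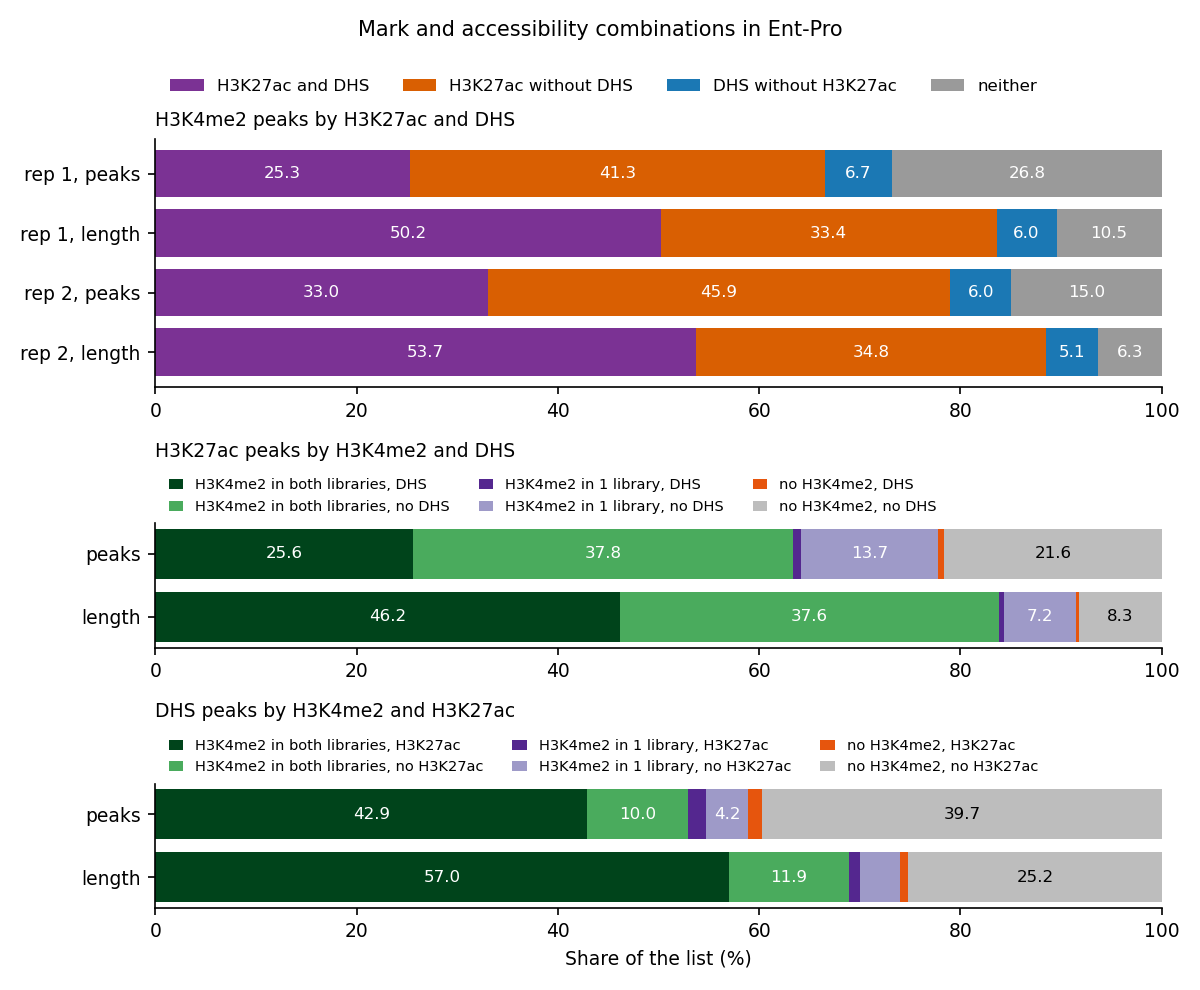
Share of each Ent-Pro list (x axis, %) in each combination, for the 2 H3K4me2 libraries by number and by covered length (top), for H3K27ac peaks (middle) and for DHS (bottom). Peaks with H3K27ac and DHS are 25.3% and 33.0% of the H3K4me2 peaks and 50.2% and 53.7% of their length, and 39.7% of DHS carry neither mark.

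Peaks with all marks were wide and strong, and those with H3K4me2 alone were narrow and weak. The median width of peaks with H3K27ac and DHS was 1424 bp in replicate 1 (quartiles 848 and 2177 bp) and 1201 bp in replicate 2 (768 and 1792 bp). Peaks with DHS alone had medians of 614 and 658 bp, those with H3K27ac alone 487 and 492 bp, and those with neither 251 and 306 bp. Because of their width, peaks with both companions made up 50.2% and 53.7% of the covered length of H3K4me2, and those with neither 10.5% and 6.35%. Under the 1 bp rule a wider peak can be overlapped at more positions. The part of this in the order of the classes by width and by score was not tested.

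Score ranks fell in the same order. The percentile of a peak is the share of its list with no higher score, by the authors' score. Peaks with H3K27ac and DHS had median percentiles of 85.8 and 80.4, those with DHS alone 62.7 and 54.9, those with H3K27ac alone 46.3 and 38.7, and those with neither 25.3 and 23.4. The top 20% of each list took in 66.1% and 50.9% of the peaks with both companions. It took in 17.0% and 15.2% of those with DHS alone, 4.95% and 4.76% of those with H3K27ac alone, and 0.465% and 0.593% of those with neither. Open sites without acetylation thus ranked above acetylated sites without a DHS in both replicates, and they were also somewhat wider.

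Both companions became more frequent with rank, but along different courses. From the lowest to the highest score decile of replicate 1, the share of peaks with H3K27ac rose from 40.0% [38.9 to 41.0] to 96.6% [96.2 to 96.9]. The share with a DHS rose from 4.25% [3.84 to 4.70] to 94.3% [93.7 to 94.7]. In replicate 2 the shares ran from 58.7% to 95.9% for H3K27ac and from 7.11% to 92.0% for DHS. H3K27ac climbed through the whole ranking, whereas DHS stayed low until the middle. In decile 5 of replicate 1, H3K27ac was present at 62.3% of peaks and a DHS at 13.9%, and in decile 9 at 90.9% and 84.1%. Peaks with neither were 57.2% of the lowest decile of replicate 1 and 0.198% of the highest. Width was not held constant along the ranking, and its part in the rise was not tested.

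**Figure D2:**
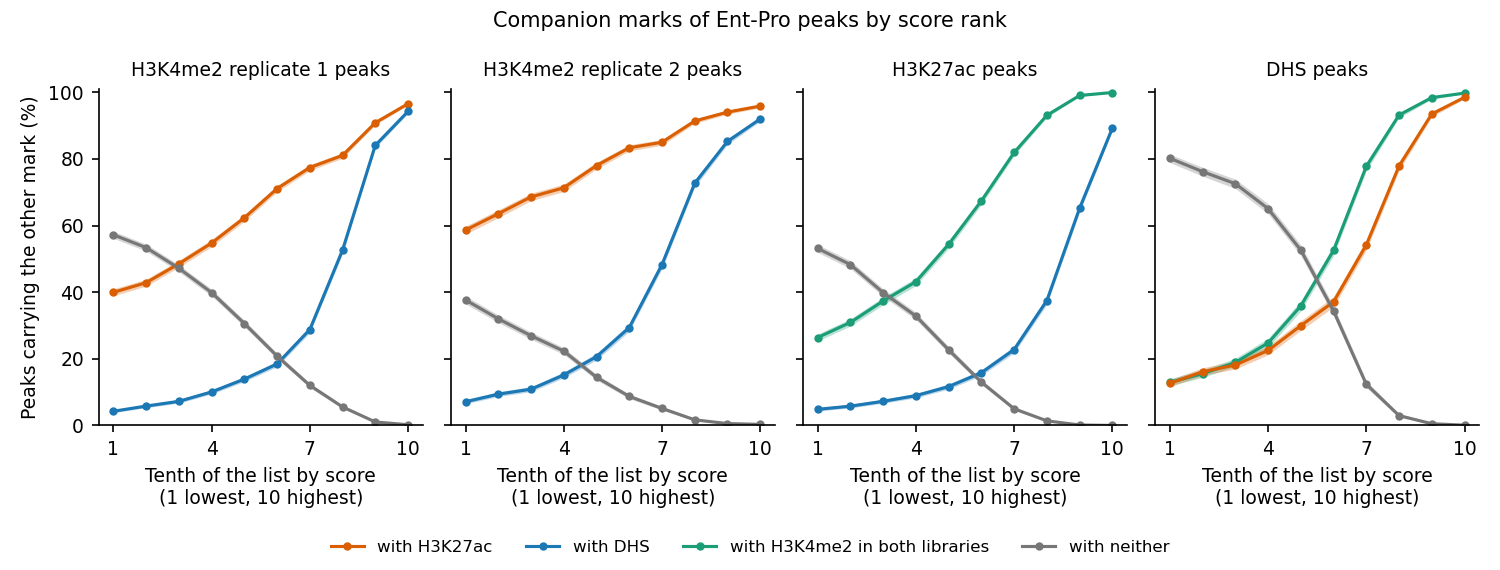
Share of peaks that carry each other mark (y axis, %) by decile of the list in order of score (x axis, 1 lowest to 10 highest), in panels for H3K4me2 replicates 1 and 2, H3K27ac and DHS. DHS on H3K4me2 replicate 1 rise from 4.25% to 94.3%, and DHS with neither mark fall from 80.2% to 0.0777% along the DHS list.

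The strongest members of each class were located on mm9, ranked by the lower of the percentiles of the 2 replicates. No mm9 annotation was used, and the position of these regions relative to genes, exons and promoters was not determined. The highest-ranked region with H3K27ac and DHS was chr1:74452475-74461774 (9300 bp), with 2 DHS and 2 H3K27ac peaks, and carried a peak in each of the other 8 lists. It was followed by chr8:72871434-72877052 and chr9:107534523-107537679, also marked in ISC, GOB and ENT. The highest-ranked region with H3K27ac and no DHS was chr3:69663628-69666338 (percentile 99.3). Here Sec-Pro had a DHS as well as H3K27ac, so the site was open in the other progenitor list. The next ones, chr7:30599966-30602128 and chr6:99212864-99217030, had H3K27ac and no DHS in Sec-Pro too.

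The highest-ranked regions with a DHS and no H3K27ac were chr18:75978562-75980519 (percentile 99.7), chr7:123181052-123184265 and chr15:99053494-99055835. All were open and without H3K27ac in Sec-Pro as well, and the first overlapped an ATOH1 peak. Those with neither were chr1:172962706-172965395 (percentile 94.7), chr18:34738016-34739069 and chr3:95709968-95711405, all marked by H3K4me2 in ISC, GOB and ENT. The last of them carried H3K27ac in Sec-Pro.

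The widest region of each class was also located. With all marks it was chr14:63848700-63876207, whose 27508 bp held 4 DHS and 5 H3K27ac peaks. With H3K27ac alone it was chr2:103132428-103144980 (12553 bp), which held a DHS in Sec-Pro. With DHS alone it was chrX:130221171-130226812 (5642 bp), and with neither it was chr13:112274370-112278229 (3860 bp). All 4 were marked by H3K4me2 in ISC, GOB and ENT.

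Ent-Pro H3K4me2 peaks were next compared with stem cells and with mature goblet cells and enterocytes, to ask which combinations are also marked before and after the progenitor stage. Presence means that a peak of the H3K4me2 list of those cells overlapped by at least 1 bp. Sites with H3K27ac and DHS were marked almost everywhere, and sites with neither least often. Over all peaks, presence was 49.7% in ISC, 68.4% in GOB and 73.3% in ENT for replicate 1, and 63.6%, 79.0% and 86.5% for replicate 2. Of the peaks with both companions, ISC marked 87.8% [87.4 to 88.2] and 90.6% [90.2 to 91.0] in replicates 1 and 2. GOB marked 97.8% [97.6 to 98.0] and 98.6% [98.5 to 98.8], and ENT 97.9% [97.7 to 98.1] and 98.8% [98.7 to 99.0]. Of the peaks with neither, ISC marked 21.2% [20.7 to 21.7] and 34.7% [33.7 to 35.6], GOB 41.5% [40.8 to 42.1] and 52.0% [51.0 to 53.0], and ENT 44.9% [44.2 to 45.5] and 63.9% [62.9 to 64.8].

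The classes with a single companion stood in opposite relation to the mature cells. Peaks with H3K27ac and no DHS were found in ENT at 75.1% [74.7 to 75.6] and 83.9% [83.5 to 84.3], and in GOB at 64.3% [63.8 to 64.8] and 71.4% [70.9 to 71.9]. Peaks with a DHS and no H3K27ac were found in GOB at 89.5% [88.7 to 90.3] and 95.4% [94.7 to 96.0], and in ENT at 83.2% [82.2 to 84.2] and 94.5% [93.8 to 95.2]. ENT minus GOB was therefore 10.8 points [10.3 to 11.2] and 12.5 points [11.99 to 12.9] for H3K27ac alone. For DHS alone it was -6.28 points [-7.16 to -5.40] and -0.878 points [-1.59 to -0.163]. With both companions it was 0.129 points [-0.0582 to 0.316] and 0.203 points [0.0473 to 0.358], and with neither 3.39 points [2.76 to 4.01] and 11.9 points [10.9 to 12.8]. Over all peaks it was 4.96 and 7.52 points. In the merged regions of both libraries it was 11.7 points with H3K27ac alone, 11.7 points with neither and -0.704 points with DHS alone. The excess of ENT was thus not particular to peaks with H3K27ac. The sign for DHS alone was the same in both replicates, but its size in replicate 2 was small.

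The ENT list was the longer one, with 88489 peaks and 69.5 Mb against 86922 peaks and 64.4 Mb for GOB. With both cut by score to equal covered length, ENT minus GOB averaged 4.66 points over the replicates for H3K27ac alone, in place of 11.6. For DHS alone it averaged -10.2 points in place of -3.58. The signs of the 2 classes stayed opposite. The difference for DHS alone nearly vanished among stronger Ent-Pro peaks, at -0.331 ± 0.786 points in the upper 50% by score and -0.126 ± 0.442 points with Ent-Pro lists of equal length (SD, n = 2), so that its sign differed between the libraries. In counts, 5579 replicate 1 peaks with H3K27ac alone were found in ENT and not in GOB, and 1765 in GOB and not in ENT. For DHS alone the counts were 161 and 520. With 1 library of each mature cell type, the difference between the cell types was not tested.

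Over all scores, stem cells marked peaks with DHS alone more often than peaks with H3K27ac alone, at 52.9% [51.7 to 54.2] against 44.4% [43.9 to 44.9] in replicate 1 and 70.2% [68.7 to 71.6] against 52.7% [52.1 to 53.2] in replicate 2. Within quintiles of the list by score, the order was reversed in replicate 1. Its lowest 4 quintiles gave 6.91%, 12.9%, 26.4% and 76.7% for DHS alone against 12.6%, 21.0%, 43.8% and 81.0%. In replicate 2 they gave 33.1%, 45.4%, 68.1% and 90.3% against 26.1%, 38.0%, 62.8% and 87.9%. Peaks found in all of ISC, GOB and ENT made up 86.9% and 90.0% of the class with both companions and 9.37% and 20.1% of that with neither. They made up 32.9% and 41.6% of the class with H3K27ac alone, and 50.4% and 68.2% of that with DHS alone. Over all peaks the share found in all 3 was 41.4% and 56.0%. Peaks found in none of the 3 were 0.879% and 0.434% with both companions, 15.1% and 9.03% with H3K27ac alone, 6.94% and 2.12% with DHS alone, and 38.2% and 22.9% with neither. Over all peaks they were 17.1% and 7.85%, so the class with H3K27ac alone lay near the whole list.

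**Figure D3:**
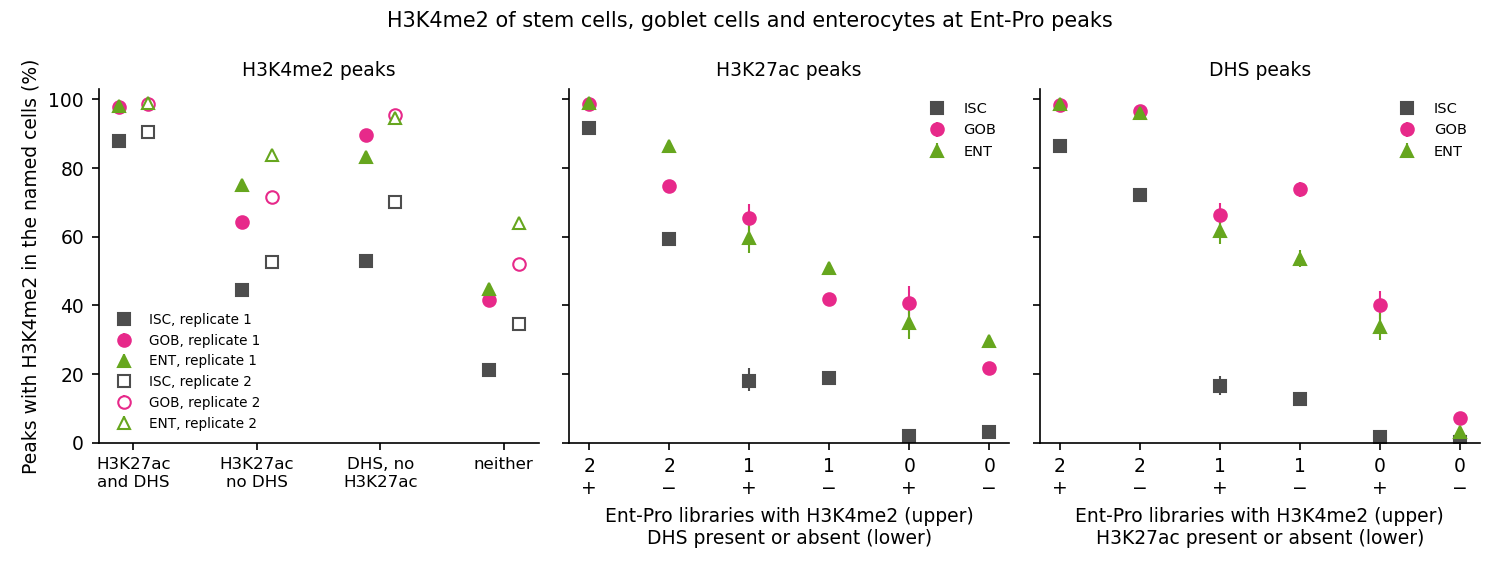
Share of Ent-Pro peaks marked by H3K4me2 in ISC, GOB and ENT (y axis, %, bars are 95% Wilson intervals) for each combination, for H3K4me2 peaks (left, filled symbols replicate 1, open symbols replicate 2), H3K27ac peaks (middle) and DHS (right). ENT lies above GOB for H3K4me2 peaks with H3K27ac alone (75.1% against 64.3% in replicate 1) and below it for those with DHS alone (83.2% against 89.5%).

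Classes differed in score, and strong peaks were found in the other cells more often than weak ones, so presence was also compared between peaks of like rank, within quintiles of the list by score. At like rank, a DHS went with a larger difference in goblet cells than in enterocytes. H3K27ac went with a larger one in enterocytes in the lowest 3 quintiles. For ENT, the larger difference in these quintiles went with H3K27ac in replicate 1 and with a DHS in replicate 2. Over all of replicate 1, GOB marked 96.1% of the peaks with a DHS and 55.3% of those without, a difference of 40.7 points [40.3 to 41.2]. From the lowest to the highest score quintile, this difference was 29.0, 29.8, 28.0, 11.4 and 0.961 points. In replicate 2 it was 31.5 points [31.0 to 31.97] over all and 36.5, 29.7, 18.6, 6.34 and 1.23 points by quintile. In ENT a DHS made 31.7 and 19.2 points over all peaks of replicates 1 and 2. By quintile it made 8.50, 13.1, 13.5, 4.02 and 0.0472 points in replicate 1, and 18.3, 14.9, 7.46, 1.19 and 0.128 points in replicate 2.

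H3K27ac showed the reverse order in the lowest 3 score quintiles, but not over all peaks of replicate 2. With minus without H3K27ac, ENT presence differed by 31.3 points [30.6 to 31.9] in replicate 1 and 17.4 points [16.6 to 18.2] in replicate 2. In the lowest 3 score quintiles it differed by 20.2, 21.2 and 14.6 points in replicate 1 and by 13.0, 10.9 and 4.73 points in replicate 2. GOB presence differed by 9.32, 10.04 and 7.66 points and by 7.93, 7.59 and 2.57 points in the same quintiles, against 26.0 and 18.3 points over all peaks. In the highest quintile the differences by H3K27ac lay between -0.156 and -0.0124 points in both mature cells, since nearly all such peaks were present. Within quintiles by width in place of score, the differences in the narrowest quintile of replicate 1 were 35.4 points in GOB and 18.3 in ENT for DHS, and 8.99 and 20.1 for H3K27ac. In replicate 2 they were 37.6 and 21.1 points for DHS, and 5.63 and 10.8 for H3K27ac. In width quintiles 2 to 5 of replicate 1, too, the ENT difference was larger by DHS than by H3K27ac.

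In stem cells the difference by DHS was reduced among peaks of like score, and less so among peaks of like width. Over all peaks, ISC marked 80.5% of the replicate 1 peaks with a DHS and 35.2% of those without, a difference of 45.3 points [44.7 to 45.9], and in replicate 2 the difference was 39.2 points [38.6 to 39.8]. Within score quintiles it lay between -9.70 and 1.32 points in replicate 1, and between 0.411 and 8.14 points in replicate 2. The replicates thus differed in sign in the lowest 3 quintiles. Within width quintiles it ran from -2.13 to 18.8 points in replicate 1 and from 5.95 to 22.3 points in replicate 2. By H3K27ac, the ISC difference within score quintiles lay between 0.653 and 9.29 points in replicate 1 and between 0.896 and 3.58 points in replicate 2. It was 33.4 and 23.7 points over all peaks.

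The contrast between the single companions was present among the weakest peaks of both replicates, but for DHS alone it did not extend through the replicate 2 list. In the lowest score quintile of replicate 1, the 564 peaks with DHS alone were found in GOB at 62.2% [58.2 to 66.1] and in ENT at 40.1% [36.1 to 44.2]. The 6813 peaks with H3K27ac alone were found in GOB at 41.5% [40.3 to 42.6] and in ENT at 53.0% [51.8 to 54.2]. In replicate 2, the 520 weak peaks with DHS alone were found at 86.2% [82.9 to 88.9] in GOB and 79.0% [75.3 to 82.3] in ENT. Its 7301 weak peaks with H3K27ac alone were found at 52.7% [51.6 to 53.9] and 68.5% [67.4 to 69.6]. The GOB and ENT intervals did not overlap in either class of either replicate. For DHS alone, GOB stayed above ENT in the lowest 4 quintiles of replicate 1. In replicate 2, ENT was the higher in quintile 3 (97.8% against 96.9% in GOB) and quintile 4 (99.9% against 99.7%), with overlapping intervals. In the highest quintile of replicate 1, GOB and ENT presence was at least 98.97% in all 4 classes.

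**Figure D4:**
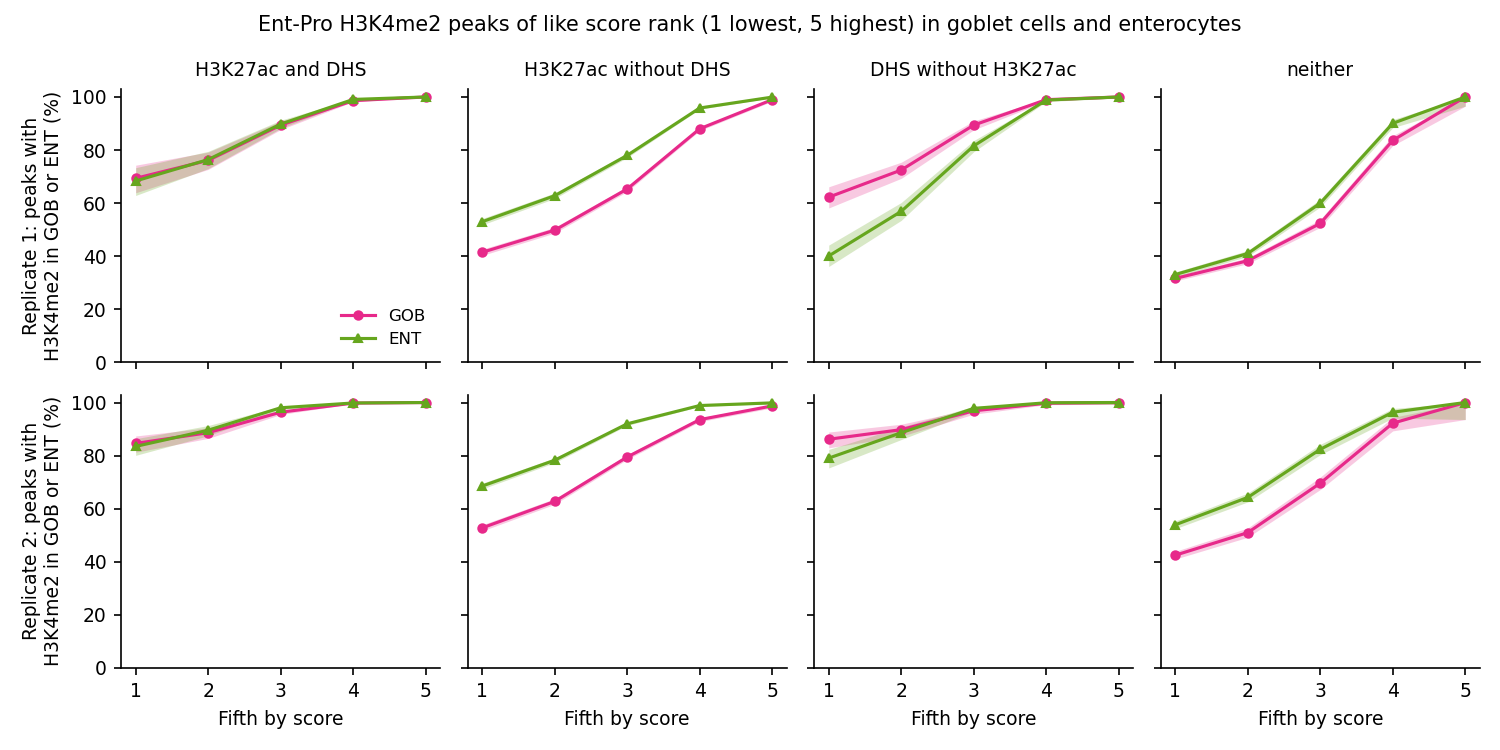
Share of Ent-Pro H3K4me2 peaks marked by H3K4me2 in GOB or ENT (y axis, %) by quintile of the list in order of score (x axis, 1 lowest to 5 highest), in a panel for each class, with replicate 1 above and replicate 2 below. In the lowest quintile, GOB lies above ENT for DHS alone (62.2% against 40.1% in replicate 1) and below it for H3K27ac alone (41.5% against 53.0%).

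Peaks seen in a single Ent-Pro library were weaker members of each class. Replicate 1 peaks absent from replicate 2 had median widths of 265 bp with both companions, 249 bp with H3K27ac alone, 288 bp with DHS alone and 215 bp with neither. Among them, GOB marked 73.6% and ENT 54.1% of the peaks with DHS alone, and GOB marked 41.7% and ENT 49.5% of those with H3K27ac alone. Among the replicate 1 peaks that replicate 2 also held, GOB marked 96.3% and ENT 95.6% with DHS alone, and 73.7% and 85.7% with H3K27ac alone. In replicate 2 peaks absent from replicate 1, GOB did not exceed ENT for DHS alone, at 49.5% and 50.5% of 95 peaks. With H3K27ac alone, GOB marked 40.2% and ENT 61.3% of 1636 such peaks.

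Most H3K27ac of enterocyte progenitors lay on H3K4me2, and nearly all H3K27ac with open chromatin did. Of 68764 H3K27ac peaks, 43575 (63.4% [63.0 to 63.7]) overlapped H3K4me2 in both libraries, 9930 (14.4% [14.2 to 14.7]) in 1 library and 15259 (22.2% [21.9 to 22.5]) in neither. A DHS was present at 18499 (26.9% [26.6 to 27.2]), and 95.1% [94.8 to 95.4] of these had H3K4me2 in both libraries. The DHS share was 40.4% [39.9 to 40.8] with H3K4me2 in both libraries, 5.28% [4.85 to 5.73] with 1 and 2.54% [2.30 to 2.80] with none.

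The H3K27ac classes differed in size as the H3K4me2 classes did, and the part of width in the overlaps was not tested here either. Peaks with H3K4me2 in both libraries and a DHS (17588) had a median width of 1356 bp and a median percentile of 84.6. Without a DHS (25987) the medians were 649 bp and 55.2. Peaks with neither H3K4me2 nor a DHS (14872) were short and low, with medians of 294 bp and 21.7, and those with a DHS and no H3K4me2 (387) had medians of 346 bp and 33.6. Where both H3K4me2 libraries overlapped, they lay over most of the acetylated stretch, a median 97.6% of its length with a DHS and 95.8% without. Where 1 library did, the medians were 55.2% and 57.1%.

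H3K27ac without H3K4me2 often lay near it. The median gap from H3K27ac peaks with neither H3K4me2 nor a DHS to the nearest H3K4me2 peak of either library was 1026 bp, and 49.5% lay within 1 kb. A further 13.9% lay more than 10 kb away. The share of H3K27ac peaks with H3K4me2 in both libraries rose from 26.4% [25.4 to 27.4] in the lowest score decile to 99.9% [99.9 to 100] in the highest. H3K27ac peaks with neither companion were 53.1% of the lowest decile and 0.131% of decile 9.

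Presence of H3K4me2 in other cells at H3K27ac peaks was 49.2% in ISC, 64.6% in GOB and 72.0% in ENT over the whole list. ENT exceeded GOB wherever no DHS was present, and the sign turned where a DHS was present without H3K4me2 in both libraries. Without a DHS, ENT and GOB marked 86.5% [86.1 to 86.9] and 74.6% [74.1 to 75.1] of peaks with H3K4me2 in both libraries, 50.8% [49.8 to 51.8] and 42.0% [40.99 to 43.0] with 1, and 29.6% [28.9 to 30.3] and 21.8% [21.2 to 22.5] with none. With a DHS they marked 98.8% and 98.6%, 59.5% [55.3 to 63.7] and 65.5% [61.3 to 69.4], and 34.9% [30.3 to 39.8] and 40.8% [36.0 to 45.8]. ENT minus GOB in the last 2 classes was -5.92 points [-10.0 to -1.80] and -5.94 points [-10.9 to -0.939], over 524 and 387 peaks.

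ISC marked few H3K27ac peaks that lacked H3K4me2 in Ent-Pro, 3.05% [2.78 to 3.33] without a DHS and 2.07% [1.05 to 4.03] with one. Acetylated sites without H3K4me2 in progenitors were thus marked in mature cells more often than in stem cells. The ISC list was shorter, with 68407 peaks and 33.4 Mb, and the part of this in the difference was not tested.

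The strongest H3K27ac peaks without H3K4me2 and without a DHS were chr16:11455123-11457891 (2769 bp, score 111), chr16:96081332-96082631 and chr3:137496535-137497258. All carried H3K27ac in Sec-Pro too. The first was marked by H3K4me2 in GOB and ENT, the next in GOB, and the last in no H3K4me2 list. The region chr16:96081332-96082631 also overlapped an ATOH1 peak of Sec-Pro. With a DHS, the strongest were chr4:122959965-122960330 (366 bp, score 55.0), chr9:108930953-108931760 and chr6:128749522-128749867. The one on chromosome 9 was marked in no H3K4me2 list, and the others were marked in GOB and ENT.

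Most open sites carried at least 1 of the marks, and a large minority carried neither. Of 38595 DHS, 20444 (53.0% [52.5 to 53.5]) overlapped H3K4me2 in both libraries, 2294 (5.94% [5.71 to 6.18]) in 1 library and 15857 (41.1% [40.6 to 41.6]) in neither. H3K27ac was present at 17774 (46.1% [45.6 to 46.6]), of which 93.2% [92.8 to 93.6] had H3K4me2 in both libraries. DHS with neither mark numbered 15320 (39.7% [39.2 to 40.2]). These unmarked sites included the 6 DHS on the mitochondrial genome, which carries no histones. H3K27ac accompanied 81.0% [80.5 to 81.6] of DHS with H3K4me2 in both libraries, 29.2% [27.3 to 31.1] with 1 and 3.39% [3.12 to 3.68] with none.

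Unmarked DHS were short and weak, and the part of width in their lack of overlaps was not tested. Their median width was 253 bp and their median percentile 25.6, against 552 bp and 77.2 with both marks and 456 bp and 60.1 with H3K4me2 in both libraries and no H3K27ac. In the lowest score decile 80.2% [78.9 to 81.4] of DHS had neither mark, and in the highest decile 0.0777% [0.0264 to 0.228], 3 of 3859. Unlike unmarked H3K27ac, they lay far from H3K4me2, at a median gap of 9626 bp, with 9.29% within 1 kb and 49.0% beyond 10 kb. Their median gap to H3K27ac was 15474 bp. DHS with H3K27ac and no H3K4me2 (537) had a median gap of 437 bp to H3K4me2.

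Presence of H3K4me2 at DHS was 45.2% in ISC, 59.6% in GOB and 57.0% in ENT over the whole list, the only Ent-Pro list in which GOB exceeded ENT. DHS with both marks were found in GOB at 98.4% and in ENT at 98.5%. Those with H3K4me2 in both libraries and no H3K27ac were found at 96.6% [96.0 to 97.1] and 96.1% [95.4 to 96.6]. The widest gap was at the 1625 DHS with H3K4me2 in 1 library and no H3K27ac, of which GOB marked 73.8% [71.6 to 75.9] and ENT 53.6% [51.2 to 56.0], a difference of -20.2 points [-22.7 to -17.7] for ENT minus GOB. Of the unmarked DHS, GOB marked 7.24% [6.84 to 7.66], ENT 3.26% [2.99 to 3.56] and ISC 0.202% [0.143 to 0.287]. Most sites open and unmarked in progenitors thus had no H3K4me2 peak in stem, goblet or absorptive cells either, 91.6% in all.

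The strongest unmarked DHS were chr9:35112667-35113235 (569 bp, score 290), chr11:108872898-108873478 (581 bp, score 283) and chr3:5860493-5860980 (488 bp, score 190). All were open in Sec-Pro, and those on chromosomes 11 and 3 overlapped ATOH1 peaks and had H3K4me2 in GOB and ENT. Regions prone to artefact signal were not filtered out of the lists here, and whether these sites are such regions was not tested. The strongest DHS with H3K27ac and no H3K4me2 were chr4:122959719-122960179 (461 bp, score 152), chr3:40697854-40698260 and chr12:56180947-56181385. The first overlapped the H3K27ac peak named above on the same chromosome.

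Around DHS with both marks, H3K4me2 was less frequent at the centre of the open site than on either side, although most centres were covered. At the centres of these 16568 DHS, H3K4me2 peaks lay over 79.0% in replicate 1 and 67.2% in replicate 2. At 300 bp to the left and right the shares were 90.2% and 90.1% in replicate 1, and 83.8% and 84.0% in replicate 2. Of these DHS, 52.4% and 46.1% lay wholly inside an H3K4me2 peak. H3K27ac peaks showed no such dip, with 89.1% at the centre and 85.2% and 86.1% at 300 bp. At the 3876 DHS with H3K4me2 and no H3K27ac, H3K4me2 lay over 88.0% and 86.8% of the centres in replicates 1 and 2, and over 80.9% and 66.05% at 300 bp to the left. Replicate 1 had a shallow dip here too, with 89.99% and 90.5% at 100 bp to the left and right, whereas replicate 2 was highest at the centre.

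Among DHS with both marks, the centre was least often covered at the strongest sites. In the highest DHS score quintile, the centre lay inside an H3K4me2 peak at 70.6% [69.6 to 71.6] of the DHS with both marks in replicate 1 and at 49.2% [48.1 to 50.4] in replicate 2. For DHS with H3K4me2 and no H3K27ac in the same quintile the shares were 91.1% [87.2 to 94.0] and 89.3% [85.1 to 92.4], over 271 sites. The median DHS widths there were 748 and 611 bp, and the part of this difference in width was not tested. Among DHS with both marks, the median width was 212 bp in the lowest quintile. A wide DHS can be overlapped at its edge only, and the part of width in the trend over quintiles was not tested either. In the lowest quintile the shares with and without H3K27ac were 87.5% and 84.4% in replicate 1 and 85.2% and 83.0% in replicate 2, with overlapping intervals. An overlap rule of 1 bp thus counts as marked many strong sites whose centre lay under no H3K4me2 peak of a given library. With at least 50% of the DHS overlapped, 42.6% of DHS had H3K4me2 in both libraries in place of 53.0%.

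**Figure D5:**
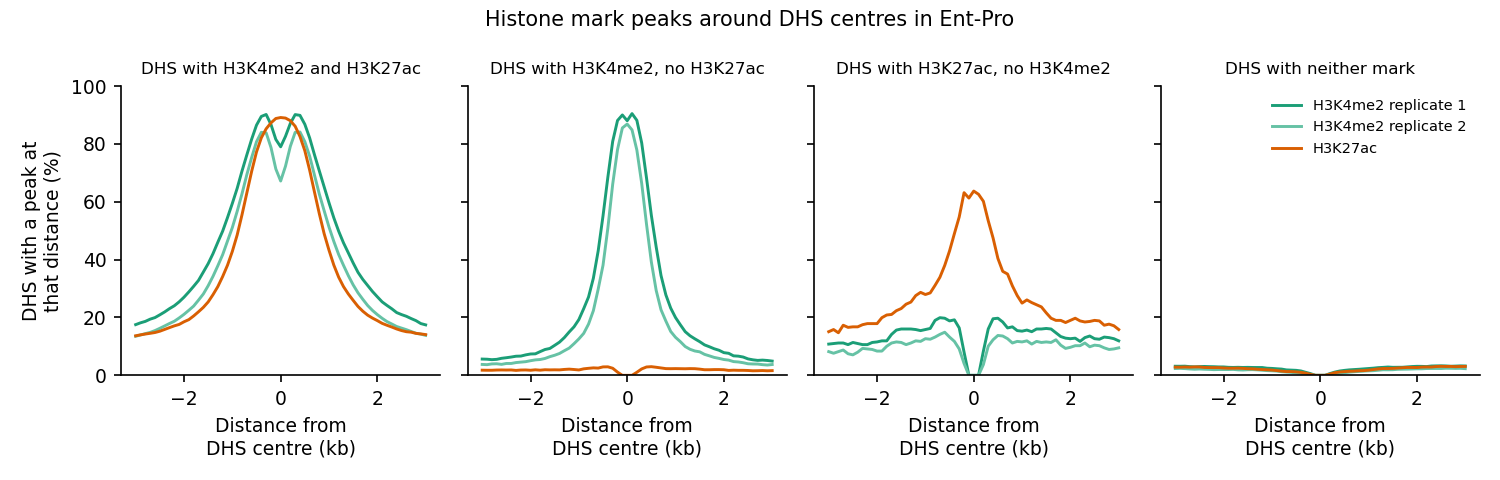
Share of DHS with a histone mark peak (y axis, %) by distance from the DHS centre (x axis, kb), in panels for DHS with both marks, with H3K4me2 alone, with H3K27ac alone and with neither, and lines for H3K4me2 replicates 1 and 2 and H3K27ac. With both marks, H3K4me2 falls from 90.2% at 300 bp to 79.0% at the centre in replicate 1, while H3K27ac is at 89.1% there.

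Most combinations were the same at these sites in secretory progenitors. The states H3K27ac with DHS, H3K27ac alone, DHS alone and neither were kept in the Sec-Pro H3K27ac and DHS lists at 79.7%, 82.6%, 82.1% and 87.1% of replicate 1 peaks. In replicate 2 they were kept at 80.8%, 86.4%, 83.3% and 83.8%. Over all replicate 1 and 2 peaks, Sec-Pro had H3K27ac at 61.4% and 73.6% and a DHS at 27.7% and 34.1%. Most peaks thus lacked a DHS in Sec-Pro, which favours the states without a DHS. Where peaks with both companions differed, they most often lacked the DHS in Sec-Pro (13.2% and 13.0%), and 5.38% and 4.86% lacked H3K27ac instead. A change between the single companions was rare. Of 35434 replicate 1 peaks with H3K27ac alone, 32 had DHS alone in Sec-Pro, and of 5719 peaks with DHS alone, 64 had H3K27ac alone. The Sec-Pro DHS list was the shorter one, with 31980 sites.

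The same signs for the single companions were found in secretory progenitors. Both Sec-Pro H3K4me2 lists were classed by the single H3K27ac and single DHS list of Sec-Pro, and the labels do not say whether Rbpj deletion or DBZ gave those. ENT minus GOB was 11.9 points (Rbpj deletion) and 10.1 points (DBZ) for H3K27ac alone, and -2.49 and -5.82 points for DHS alone. These values rest on the same ENT and GOB lists as those of Ent-Pro and on many of the same sites, so they are not a separate observation. The class shares in the same order of libraries were 27.6% and 20.2% with both companions, 46.1% and 37.7% with H3K27ac alone, 7.41% and 6.89% with DHS alone, and 18.8% and 35.3% with neither. Unmarked DHS made up 38.5% [38.0 to 39.0] of Sec-Pro DHS, and GOB marked 8.92% and ENT 3.47% of them.

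Among the 4 combinations, H3K4me2 peaks with both companions were the most often overlapped by peaks of ATOH1, which was mapped in Sec-Pro and is deleted in Ent-Pro. ATOH1 peaks overlapped 22.5% [21.9 to 23.0] and 21.2% [20.7 to 21.8] of the Ent-Pro H3K4me2 peaks with both companions. They overlapped 10.1% [9.39 to 11.0] and 11.3% [10.4 to 12.4] of those with DHS alone, 5.56% [5.33 to 5.81] and 5.52% [5.26 to 5.78] with H3K27ac alone, and 2.61% [2.41 to 2.83] and 2.88% [2.57 to 3.24] with neither. Over all H3K4me2 peaks the shares were 9.36% and 10.7%, near those with DHS alone. Wider peaks can overlap more sites, and the part of width in this order was not tested. Of the unmarked Ent-Pro DHS, 53.6% [52.8 to 54.4] were open in Sec-Pro and 3.01% [2.75 to 3.29] overlapped an ATOH1 peak. Both shares were below those of all Ent-Pro DHS, 70.2% and 13.7%. The unmarked DHS also open in Sec-Pro (8215) had a median percentile of 36.0 in the Ent-Pro list, and those not open there (7105) 17.1. GOB marked 9.43% of the former and 4.70% of the latter, and ENT 3.48% and 3.01%.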

How the data were processed

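Peak lists of H3K4me2, H3K27ac and ATOH1 chromatin immunoprecipitation sequencing and of DNase-seq were analysed for 12 of 15 samples. Input DNA (3 samples) was not used. The submitters' processing notes name CASAVA 1.7, Bowtie 0.12.7, MACS2 and build mm9. Their settings, and any use of input DNA as background, were not given in the sources used here. Per the labels, chromatin was fixed with formaldehyde, sonicated and amplified with a ThruPLEX kit. The authors deposited 1 list per library, not pooled, with 5 columns and no header: chromosome, start, end, name and the authors' score. The files do not name the score, which served only to rank peaks within a list. Read depth is unknown, and its effect on list length cannot be told apart from biology.

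Computation used Python 3.11.15, pandas 2.3.3, NumPy 2.4.6 and SciPy 1.17.1, with matplotlib 3.10.9 for the figures. A peak carried a mark where at least 1 bp was overlapped. H3K27ac peaks and DHS were classed by how many of the 2 H3K4me2 libraries overlapped them. Quintiles and deciles hold equal numbers of peaks, with ties broken by position. Intervals (95%) are Wilson for shares, Newcombe for differences between sets of peaks and paired for ENT minus GOB. Named regions are the 3 highest-ranked and the widest H3K4me2 region of each class, and the 3 highest-scoring H3K27ac peaks and DHS without H3K4me2, by class, with 1-based positions. The functions were tested on simulated peaks and against direct counts. Alternatives were an overlap of 50%, a gap of up to 500 bp, the upper 50% by score, lists of equal length, autosomes only, merging within 1 kb, either H3K4me2 library in place of both, and leaving out each H3K4me2 library. The classes and comparisons were chosen with earlier results of these data known. The gene and promoter tables at hand belong to GRCm38.p6, and no coordinates were converted, so no gene or sequence is given.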

Additional observations from a re-analysis of the deposited data

Results flagged for a closer look

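The difference between enterocytes and goblet cells had opposite signs in different classes of Ent-Pro H3K4me2 peaks, in both libraries. ENT minus GOB presence was positive for peaks with H3K27ac alone (10.8 and 12.5 points in replicates 1 and 2), with neither companion (3.39 and 11.9 points) and, narrowly, with both (0.129 and 0.203 points). Over all peaks it was 4.96 and 7.52 points. It was negative in both libraries for peaks with DHS alone (-6.28 and -0.878 points), but averaged -0.331 points with an SD of 0.786 in the upper 50% by score, where the libraries differed in sign. The difference between the classes was not tested.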

How the results depend on the processing

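Of 86 values recomputed for 10 results, 44 stayed within the spread or interval of the reported value, 42 moved beyond it and 0 changed sign as averages over libraries. These counts depend on the yardstick and do not measure robustness. For results averaged over 2 libraries, the value without 1 library lies within the SD by construction. For results from 1 list, the interval covers counting error only, so small changes count as moved. Requiring 50% overlap lowered the share of H3K4me2 peaks with DHS from 35.5% to 6.85%, H3K27ac peaks with H3K4me2 in both libraries from 63.4% to 52.2% and with DHS from 26.9% to 6.73%, DHS with H3K4me2 from 53.0% to 42.6% and with H3K27ac from 46.1% to 41.6%. DHS are shorter than the other peaks, so this rule lowers the DHS shares by construction. A gap of up to 500 bp gave 72.6%, 30.7%, 56.0% and 48.5% for the last 4, and merging within 1 kb gave 42.4% for H3K4me2 with DHS, 73.1% for H3K27ac with H3K4me2 and 38.3% for H3K27ac with DHS. In the upper 50% by score, H3K27ac accompanied 86.6% of H3K4me2 peaks (72.8% over all) and DHS 60.4%, H3K27ac peaks had H3K4me2 at 88.2% and DHS at 46.0%, and DHS had H3K4me2 at 84.3% and H3K27ac at 72.2%. Lists of equal length gave 59.0% for H3K4me2 with DHS, 63.9% and 42.5% for H3K27ac with H3K4me2 and DHS, and 47.6% and 41.9% for DHS with H3K4me2 and H3K27ac. Overlap in either H3K4me2 library gave 77.8% of H3K27ac peaks and 58.9% of DHS.

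ENT presence with minus without H3K27ac, 24.4 points, fell to 4.70 in the upper 50% and 5.78 at equal length, and with minus without DHS, 25.4 points, to 6.10 and 6.11. ENT minus GOB for H3K27ac alone, 11.6 points, was 12.9 with 50% overlap, 9.76 with the gap, 7.70 in the upper 50% and 7.86 at equal length. For DHS alone, -3.58 points, it was -6.03, -3.53, -0.331 and -0.126 in the same order, the last 2 with SDs of 0.786 and 0.442 and thus of different sign in the 2 libraries. After the data were seen, the ENT and GOB lists were also reduced. At equal covered length, ENT minus GOB was 4.66 points for H3K27ac alone and -10.2 for DHS alone. With the upper 50% of each it was 8.06 and -8.90 points, and ENT presence with minus without DHS was 42.9 points. Apart from these constructions the cause was not tested.

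Leaving out either H3K4me2 library gave 66.5% to 79.0% for H3K4me2 with H3K27ac, 31.9% to 39.1% with DHS, 65.3% to 75.9% for H3K27ac with H3K4me2 and 53.6% to 58.3% for DHS with H3K4me2. The 2 ENT differences ran from 17.4 to 31.3 and from 19.2 to 31.7 points, and ENT minus GOB from 10.8 to 12.5 points for H3K27ac alone and from -6.28 to -0.878 for DHS alone. The last of these is small without replicate 1 (-0.878). No paired analysis was possible because Ent-Pro H3K4me2 was the only group compared with replicate numbers. Unknown depth limits every statement on a missing peak.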

Other observations

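The X chromosome held a different mix of combinations from the autosomes. Of its 1784 replicate 1 H3K4me2 peaks, 10.4% [9.04 to 11.9] had DHS alone, against 6.58% [6.41 to 6.75] of 84097 autosomal peaks. Of 1298 in replicate 2 the share was 9.71% [8.21 to 11.4], against 5.96% [5.78 to 6.15]. H3K27ac alone was less frequent on X, at 32.5% [30.4 to 34.7] against 41.4% [41.1 to 41.8] in replicate 1 and 38.8% [36.2 to 41.5] against 46.1% [45.7 to 46.5] in replicate 2. Peaks with both companions made up 30.7% [28.6 to 32.8] on X and 25.2% [24.9 to 25.5] on autosomes in replicate 1, and 35.8% [33.3 to 38.5] and 33.0% [32.6 to 33.4] in replicate 2. Peaks with neither had like shares, 26.5% and 26.8% in replicate 1 and 15.6% and 15.0% in replicate 2. Among H3K27ac peaks with H3K4me2 in both libraries, those with a DHS were 33.4% [30.9 to 36.0] of the X list and 25.4% [25.1 to 25.8] of the autosomal one.

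H3K4me2 peaks with neither companion lay within 1 kb of an H3K27ac peak more often than within 1 kb of a DHS. Of these peaks, 35.8% in each replicate lay within 1 kb of an H3K27ac peak, and 11.9% and 11.4% within 1 kb of a DHS. The median gap to H3K27ac was 2522 bp in replicate 1 and 2887 bp in replicate 2, and to a DHS 6405 and 6784 bp. The H3K27ac list was the longer one, with 68764 peaks and 64.0 Mb against 38595 and 17.5 Mb for DHS. The part of list length in this difference was not tested.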
